A study of Mus musculus with 8 samples.

Results

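The genes of 10 channels and transporters that move salt and water across epithelia were followed in RNA of cells sorted from tumor-bearing mouse lungs. They were taken by gene name from a list of such channels, which was chosen with earlier results of these data known. All were found among the 27179 genes counted. They comprise the 3 subunits of the epithelial sodium channel ENaC (Scnn1a, Scnn1b and Scnn1g), the chloride channels Cftr and Ano1, the cotransporter Slc12a2 and the aquaporins Aqp1, Aqp3, Aqp4 and Aqp5. In the QZ1-hi population 7 of the 10 fell against QZ1-lo, Aqp1 alone of them rose, Slc12a2 did not pass the test and Aqp3 was too low to test.

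The cells came from female C57BL/6 mice (C57BL/6J in the study's methods) with a rearrangement of Eml4 and Alk, labelled Eml4-Alk translocation, made in the lung by an adenovirus with Cas9 and guide RNAs given through the trachea. The mice were 18 to 22 weeks old, 11 to 12 weeks after induction, and received 4.5 nmol of QZ1-(PEG2K) by vein, a quenched probe that fluoresces when a protease cuts its linker. Lungs were taken 2 h later, and live cells without surface CD45 or CD11b were split by QZ1 signal, plotted against EpCAM, into QZ1-hi and QZ1-lo, with at least 100000 cells per population. Bulk RNA-seq gave 4 libraries of each population. Genotype, age range, virus and probe were thus the same in both groups, which were set apart by the probe signal of the sorted cells. The mix of cell types in the groups differed too, as the marker levels below show. No healthy lung was in this comparison, no label marked the tumor cells, and each library pooled every cell type that passed the gates. The libraries are described as biological replicates, but no source used here names the mouse behind a library or links a QZ1-hi to a QZ1-lo library, so p-values measure the spread between these libraries. Replicate numbers follow the order of deposit, so a shared number does not show a shared mouse. Both populations were sorted from lung suspensions, so a QZ1-hi and a QZ1-lo library may share a mouse. The tests below treat all libraries as independent.

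Lung epithelium keeps its surface wet by balancing absorption against secretion. ENaC, built from the alpha, beta and gamma subunits encoded by Scnn1a, Scnn1b and Scnn1g, lets sodium in from the airspace, the sodium pump moves it out on the other side, and water follows. CFTR, the channel lost in cystic fibrosis, and ANO1, a calcium-activated channel also called TMEM16A, let chloride out, and NKCC1, encoded by Slc12a2, loads the cell with the chloride that they release. Aquaporins are water pores: AQP5 is known in alveolar type 1 cells and gland cells, AQP3 in basal cells of the airway, AQP4 in the basolateral membrane of airway cells, and AQP1 in the endothelium of capillaries and in red blood cells. The study also used Aqp5 as a marker of alveolar type 2 cells.

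The stretches upstream of 3 of these genes are shown, and their part in the results was not tested. Aqp1 was the member that rose, and Scnn1g and Scnn1b, which fell side by side, lie on the same strand of chromosome 7 with 96.6 kb between them. RefSeq start sites on GRCm38.p6 were used, and 7 of the 10 genes matched an entry. The windows are chr6:55336049-55336298 for Aqp1, chr7:121734229-121734419 for Scnn1g (191 bases, cut before its first annotated exon) and chr7:121864788-121865037 for Scnn1b, all on the plus strand. Capitals mark the GC box, GGGCGG or its complement CCGCCC.
Aqp1: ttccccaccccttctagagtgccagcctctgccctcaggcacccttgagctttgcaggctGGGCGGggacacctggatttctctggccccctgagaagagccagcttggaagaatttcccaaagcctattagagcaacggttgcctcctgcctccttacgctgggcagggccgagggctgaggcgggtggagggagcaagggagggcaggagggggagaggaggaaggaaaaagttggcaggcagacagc
Scnn1g: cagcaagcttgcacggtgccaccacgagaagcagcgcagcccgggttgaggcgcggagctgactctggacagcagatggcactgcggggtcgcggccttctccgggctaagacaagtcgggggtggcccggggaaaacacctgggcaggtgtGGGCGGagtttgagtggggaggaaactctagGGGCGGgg
Scnn1b: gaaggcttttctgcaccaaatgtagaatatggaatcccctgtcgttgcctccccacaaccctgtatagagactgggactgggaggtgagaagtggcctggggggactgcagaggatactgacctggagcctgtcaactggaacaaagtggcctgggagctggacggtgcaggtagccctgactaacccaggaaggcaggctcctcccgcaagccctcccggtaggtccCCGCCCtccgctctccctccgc

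The GC box, a motif bound by Sp1-type factors, lay 190 bases upstream of the Aqp1 start, 22 bases upstream of the Scnn1b start and 98 and 67 bases upstream of 121734479, the Scnn1g start site in the promoter table, which lies inside the gene's annotated span. For Aqp1, the bases just after the start were not found as an unbroken stretch in a GENCODE transcript of the gene. On either strand, 1 or more GC boxes occurred in the 250 bases before the start site of all 7 matched genes, Scnn1g searched over the full 250 bases, beside 32.7% of 32851 such windows of all genes and 42.6% of 21263 windows of protein-coding genes. Base composition was high in G and C in each printed window, at 62.0% for Aqp1, 67.0% for Scnn1g and 60.8% for Scnn1b. No TATAAA was found in the 3 printed windows on either strand, beside 12.4% of all windows. An extended ETS motif, CCGGAA, was likewise not found, beside 12.0%. Its inner GGAA was not counted, and it does occur in each of the 3 printed windows. A steroid receptor arm, AGAACA, was not found either, beside 16.1%. The GC box was thus present upstream of Aqp1, which rose, and of Scnn1b and Scnn1g, which fell.

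The libraries held between 18380918 and 26847938 counts, and mitochondrial and ribosomal RNA took up 43.7%, 62.8%, 52.0% and 65.6% of them in QZ1-hi and 34.0%, 53.2%, 37.0% and 43.3% in QZ1-lo. This share was thus mostly higher in QZ1-hi, with overlap, and a fit without those genes called the same number of channel genes, 8. Levels are given in CPM (counts scaled to a common library size) after TMM scaling, for which the factors ran from 0.660 to 1.10 in QZ1-hi and from 0.969 to 1.35 in QZ1-lo. A floor of 3 counts stood for 0.0894 to 0.179 CPM, which covers counting error only. A log2 fold change sets QZ1-hi over QZ1-lo and is given with its standard error (SE), from edgeR's quasi-likelihood test over 15583 genes that passed a filter on low counts, and a gene is called at an adjusted p under 0.05. Exact permutation tests over the 70 ways to split the 8 libraries cannot go below p = 0.0286. Against that gate, the leukocyte markers Ptprc (CD45) and Itgam (CD11b) were still present, at 71.4 to 222 and 29.4 to 54.8 CPM in QZ1-hi and at 93.4 to 161 and 42.4 to 50.4 CPM in QZ1-lo. Epcam, whose protein was the second axis of the gate, was at 45.1 to 77.4 CPM in QZ1-hi and 115 to 153 CPM in QZ1-lo, with a log2 fold change of -1.17 ± 0.19 (SE, edgeR adjusted p = 0.00158).

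All 3 ENaC subunits were lower in QZ1-hi, by between 2.16-fold and 2.63-fold, and in none of them did the populations overlap. Scnn1a (Entrez 20276, chr6:125314271-125344943), the pore subunit without which the channel barely conducts, was at 285, 247, 293 and 283 CPM in the QZ1-lo libraries. In QZ1-hi it was at 112, 123, 81.8 and 104 CPM. Its mean fell from 277 ± 20.7 to 105 ± 17.6 CPM (SD, n = 4), or by 1.40 ± 0.14 on the log2 scale (SE, edgeR adjusted p = 0.000263). The spread within each population was small beside this gap. The beta subunit Scnn1b (20277, chr7:121865038-121918728) was at 19.1, 25.2, 27.8 and 28.4 CPM in QZ1-lo and at 9.96, 13.6, 8.56 and 12.0 CPM in QZ1-hi. It fell by 1.19 ± 0.19 on the log2 scale (edgeR adjusted p = 0.00155), and its highest QZ1-hi library stayed under its lowest QZ1-lo library. For the gamma subunit Scnn1g (20278, chr7:121734420-121768482) the levels were 19.2, 19.6, 13.5 and 15.3 CPM in QZ1-lo and 9.28, 10.2, 6.53 and 5.24 CPM in QZ1-hi. It fell by 1.11 ± 0.24 (edgeR adjusted p = 0.00718), the smallest of the 3 changes, and QZ1-hi replicates 3 and 4 were the lowest. In bulk RNA, fewer cells of a type and less RNA per cell cannot be told apart, and this holds for every gene below.

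**Figure D1:**
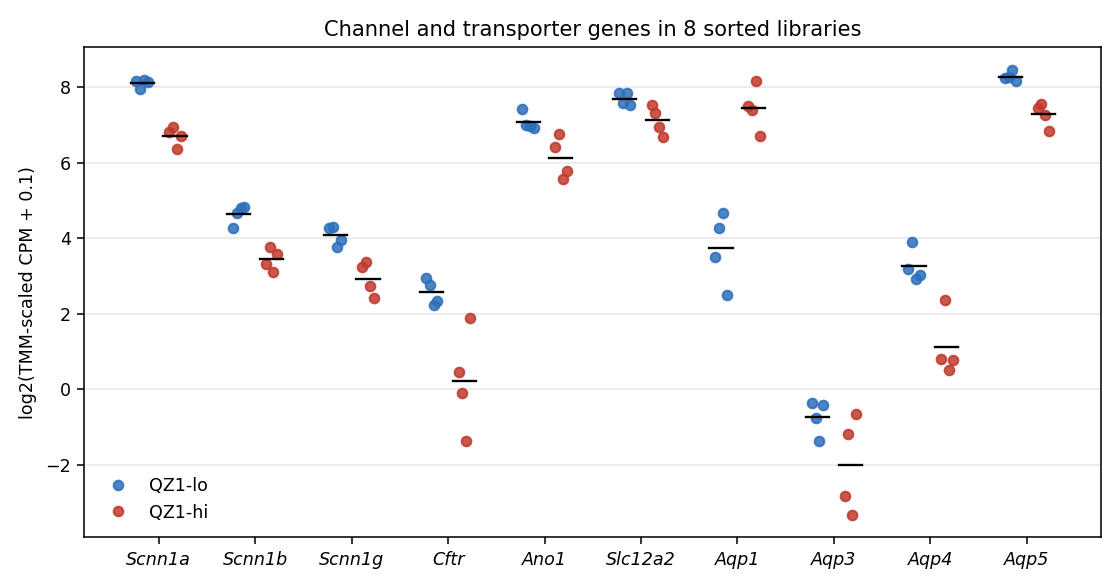
Level of each channel gene in each of the 8 libraries, as log2 of TMM-scaled CPM plus 0.1. QZ1-lo is in blue and QZ1-hi in red, with a bar at the mean of each group's log2 values. The QZ1-hi mean lies under the QZ1-lo mean for every gene but Aqp1, where it lies above, and of the 10 genes Slc12a2 and Aqp3 show overlapping groups.

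The chloride channels fell as well, on thinner evidence than ENaC. Cftr (12638, chr6:18170687-18322770) was at 7.66, 6.67, 4.60 and 4.99 CPM in QZ1-lo, from 257, 164, 127 and 122 counts. In QZ1-hi it was at 1.27, 0.840, 0.289 and 3.58 CPM, from 30, 17, 5 and 60 counts. The groups did not overlap, but QZ1-hi replicate 4 held most of the QZ1-hi counts. The log2 fold change was -2.01 ± 0.58 (SE, edgeR adjusted p = 0.0345), and the call was lost when any of QZ1-hi 1, QZ1-hi 2, QZ1-lo 1, QZ1-lo 2 or QZ1-lo 4 was left out, with adjusted p up to 0.0881. Without QZ1-hi 4 the fold change was -2.85. An exon of Cftr overlaps the antisense gene Gm15592, 1.07% of its exonic stretches of 50 bases occur elsewhere in the transcriptome, and the strand setting of the counting is not given in the sources used here.

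Ano1 (101772, chr7:144588549-144752026, minus strand), about as high per length as Slc12a2, was at 170, 128, 125 and 120 CPM in QZ1-lo and 85.2, 109, 47.1 and 54.9 CPM in QZ1-hi. The groups did not overlap, although QZ1-hi replicate 2 came close to the lowest QZ1-lo library. Ano1 fell from 136 ± 23.3 to 74.0 ± 28.5 CPM (SD, n = 4), or by 0.87 ± 0.24 on the log2 scale (SE, edgeR adjusted p = 0.0279). That call was lost without QZ1-lo 1, QZ1-lo 2, QZ1-hi 3 or QZ1-hi 4, with adjusted p up to 0.0832.

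Slc12a2 (20496, chr18:57878512-57946821), the chloride loader NKCC1, did not pass the test. It was at 228, 191, 228 and 184 CPM in QZ1-lo and at 185, 160, 122 and 103 CPM in QZ1-hi. The populations met at their edges, since QZ1-hi replicate 1 was above QZ1-lo replicate 4. The log2 fold change was -0.54 ± 0.18 (SE, edgeR adjusted p = 0.0591; exact permutation test, two-sided p = 0.0571). DESeq2 called it (adjusted p = 0.0233), as did limma (0.0368), the robust edgeR fit (0.0478), scaling by library size alone (-0.98, 0.0183) and the edgeR fit without QZ1-hi 1 (-0.69, 0.0198).

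The aquaporins did not move as one family: Aqp1 rose 12.1-fold, Aqp5 and Aqp4 fell 1.98-fold and 4.05-fold, and Aqp3 was barely detected. Aqp1 (11826, chr6:55336299-55348555) was at 182, 167, 284 and 105 CPM in QZ1-hi and at 11.2, 19.1, 25.1 and 5.52 CPM in QZ1-lo. The populations were far apart, with QZ1-hi 3 the highest and QZ1-lo 4 the lowest. The mean was 184 ± 74.4 against 15.2 ± 8.62 CPM (SD, n = 4), and the log2 fold change 3.60 ± 0.44 (SE, edgeR adjusted p = 0.000452). It ranged from 3.20 to 3.95 over 16 alternatives and passed the test in all of them.

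Aqp5 (11830, chr15:99591028-99594829) was at 299.7, 307, 352 and 285 CPM in QZ1-lo and at 173, 188, 154 and 114 CPM in QZ1-hi. Its log2 fold change was -0.98 ± 0.16 (SE, edgeR adjusted p = 0.00139), and the populations were well apart. Aqp4 (11829, chr18:15389394-15410982, minus strand) was scarce, at 9.0, 14.9, 7.49 and 8.02 CPM in QZ1-lo and at 1.65, 5.09, 1.33 and 1.61 CPM in QZ1-hi. In each population replicate 2 was the highest, yet the groups did not overlap. The log2 fold change was -2.02 ± 0.44 (SE, edgeR adjusted p = 0.00821), and -2.70 without QZ1-hi 2, the library farthest from its group. Aqp3 (11828, chr4:41092724-41098183, minus strand) was very low, with 23, 12, 8 and 16 counts in the QZ1-lo libraries and 1, 7, 0 and 9 counts in QZ1-hi, where replicates 1 and 3 lay under the floor of 3. The count of 0, in QZ1-hi 3, allows up to 0.173 CPM. Aqp3 did not pass the filter, and its levels overlapped (exact permutation test, two-sided p = 0.143). In an edgeR fit of 21271 genes with no filter its log2 fold change was -1.19 ± 1.19 (adjusted p = 0.585), so a difference was not detectable at this depth.

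Of the 10 genes, 9 were tested and 8 called, against 18.1% of all genes tested. The genes were chosen with earlier results of these data known, so the shares set beside all genes here are description only. Higher calls numbered 1, where 9.88% of all genes tested were higher, and lower calls 7, where 8.21% were lower. The populations did not overlap for 8 members (exact permutation test, two-sided p = 0.0286 for each, the smallest possible), against 22.6% of all genes. The median log2 fold change was -1.11 over the 9 tested members and 0.02 over all 15583 genes. Over all genes, 1540 were higher and 1280 lower. Scaling by library size alone turned that split to 882 higher and 2509 lower and moved the median of all genes to -0.44. The members then split into 1 higher and 8 lower, and none of them changed direction.

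**Figure D2:**
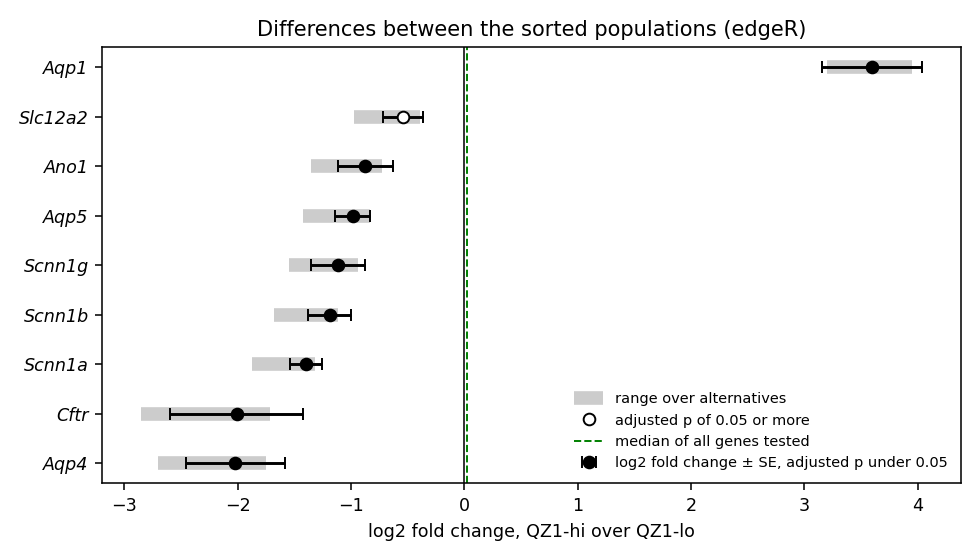
Log2 fold change of the 9 tested channel genes (horizontal axis, QZ1-hi over QZ1-lo), with points and SE bars from edgeR, grey bands for the range over all alternatives and a dashed line at the median of all genes, 0.02. Aqp1 stands alone on the right at 3.60, the other 8 lie on the left from -2.02 to -0.54, and the open point is Slc12a2, which was not called.

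Levels of different genes can be compared only per length, here as CPM per kilobase of exon (CPM/kb). In QZ1-lo the order began with Aqp5 at 120 ± 11.1, Scnn1a at 67.0 ± 5.01, Ano1 at 21.8 ± 3.74 and Slc12a2 at 19.0 ± 2.14 CPM/kb (SD, n = 4). It went on with Scnn1b at 9.54 ± 1.60, Aqp1 at 5.80 ± 3.28, Scnn1g at 5.66 ± 0.99 and Aqp4 at 1.58 ± 0.551 CPM/kb, and ended with Cftr at 0.770 and Aqp3 at 0.290 CPM/kb. Ano1 and Slc12a2 overlapped over the 4 libraries, as did Aqp1 with each of its neighbours. In QZ1-hi Aqp1 stood first, at 70.2 ± 28.3 CPM/kb, ahead of Aqp5 at 60.5 ± 12.2 CPM/kb, and the ranges of these 2 genes overlapped. Scnn1a followed at 25.5 ± 4.26, then Slc12a2 at 13.0 ± 3.39 and Ano1 at 11.9 ± 4.56 CPM/kb, which again overlapped. Scnn1b was at 4.18 ± 0.84 and Scnn1g at 2.61 ± 0.77 CPM/kb, and their ranges met. Aqp4, Cftr and Aqp3 came last, at 0.388, 0.192 and 0.126 CPM/kb, each overlapping the next. Apart from the move of Aqp1 from place 6 to place 1 and an exchange between Slc12a2 and Ano1, the order was the same in both populations. With coding length in place of exon length, 14 of the 20 places were kept. Slc12a2 then stood above Ano1 in both populations, so their exchange depended on the length used. Aqp1 moved from place 5 to place 1 by coding length, and Aqp4 stood above Scnn1g in QZ1-lo.

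**Figure D3:**
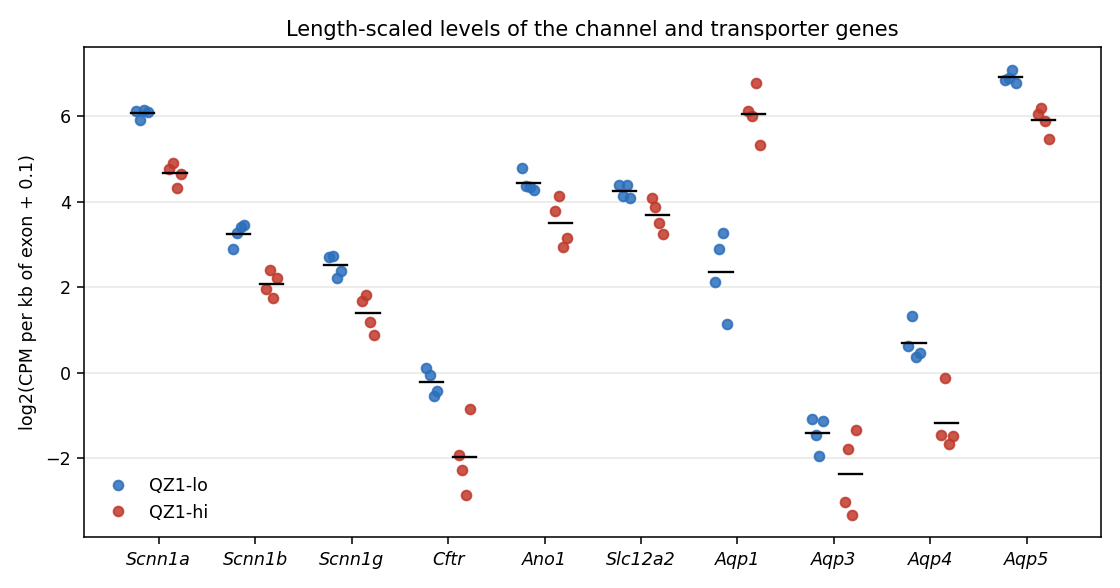
Level per length of each channel gene in each library, as log2 of CPM per kilobase of exon plus 0.1. QZ1-lo is in blue and QZ1-hi in red, with bars at the means of the log2 values of each group. Aqp5 and Scnn1a lead in QZ1-lo, Aqp1 and Aqp5 overlap at the top in QZ1-hi, and Cftr and Aqp3 lie at the bottom of both.

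Ratios inside a library do not depend on its scaling. The alpha subunit stood 6.14 ± 0.73 times over beta per kilobase in QZ1-hi and 7.20 ± 1.54 times in QZ1-lo (SD, n = 4; two-sided exact permutation p = 0.229). Alpha over gamma was 10.2 ± 2.72 in QZ1-hi and 12.2 ± 2.90 in the QZ1-lo libraries (exact permutation p = 0.286), and beta over gamma was 1.70 ± 0.61 and 1.76 ± 0.56 (exact permutation p = 0.971). A difference in subunit proportions was thus not detected with 4 libraries per group.
The ratio of Aqp1 to Aqp5 did differ. Aqp1 over Aqp5 per kilobase was 1.16 ± 0.446 in QZ1-hi, from 0.878 to 1.82, and 0.0471 ± 0.0234 in QZ1-lo, from 0.0192 to 0.0706 (exact permutation p = 0.0286).

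The families of these genes were read from lists of all their members. Of 8 ENaC and acid-sensing channel genes 5 were tested, and the 3 ENaC subunits were the ones called. Asic1 had a log2 fold change of 0.71 (edgeR adjusted p = 0.53) and Asic3 of -0.81 (0.73). Of 12 aquaporin genes 5 were tested, Aqp1 was higher, Aqp4 and Aqp5 were lower, and the median was -0.26. The other two tested were Aqp9, a glycerol and water channel, at -0.26 (edgeR adjusted p = 0.78), and Aqp11 at 1.85 (0.14), both under 3 CPM in every library. Among 10 anoctamins 5 were tested, Ano1 alone of them was called, and the median was -0.24. Ano6, a lipid scramblase and channel, was at 106 to 122 CPM in QZ1-hi and 123 to 152 CPM in QZ1-lo (-0.24, edgeR adjusted p = 0.19). None of the 6 tested cation-chloride cotransporters of 9 was called by edgeR, and the median was -0.19.

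Genes that act with the channels were read in the same way. Of 12 regulators of ENaC, all tested, 2 rose and 4 fell, with a median of -0.01. The falling ones were St14 (matriptase, -1.35 ± 0.21, edgeR adjusted p = 0.0013), Prss8 (prostasin, -0.83 ± 0.24, 0.036), Usp2 (-1.20 ± 0.34, 0.032) and Nedd4l (-0.42 ± 0.11, 0.025). Matriptase and prostasin are membrane proteases of a pathway that activates the channel by cleavage, USP2 is a deubiquitinase that keeps it at the membrane, and NEDD4L is the ubiquitin ligase that removes it. The rising ones were Nr3c1, the glucocorticoid receptor (0.44 ± 0.10, edgeR adjusted p = 0.0090), and Tsc22d3, a gene induced through that receptor (0.61 ± 0.19, 0.042). Nr3c1 was at 76.1 to 80.4 CPM in QZ1-hi and 56.4 to 59.1 CPM in QZ1-lo, and its direction turned to -0.024 (adjusted p = 0.950) under scaling by library size alone. Tsc22d3 overlapped between the populations, and without QZ1-hi 3 its fold change was 0.37 (edgeR adjusted p = 0.14). Among 16 alternatives its call was lost in 7, namely with library size only and without QZ1-hi 2, 3 or 4 or QZ1-lo 1, 3 or 4. The Nedd4l call was lost without QZ1-hi 2 or QZ1-lo 2 or 4, the Prss8 call without QZ1-hi 2 or 4 or any of the QZ1-lo libraries, and the Usp2 call without QZ1-hi 1 or 3 or QZ1-lo 2, 3 or 4. St14 was called in all 16. Sgk1, the kinase that restrains NEDD4L, was at 0.75 (edgeR adjusted p = 0.060), and Furin at 0.15 (0.48).

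Of 15 genes of chloride and bicarbonate transport 13 were tested, none rose and 3 fell, with a median of -0.46. Cftr and Ano1 were 2 of the 3. The third, Clca1, a protein secreted by goblet cells, was at -3.85 ± 1.17 (edgeR adjusted p = 0.043), and it was -2.26 (0.20) without QZ1-lo 1, its highest library. Its call was also lost without QZ1-hi 2, 3 or 4 or QZ1-lo 2, in limma (adjusted p = 0.38) and in the robust edgeR fit (0.13). Slc26a4 (pendrin) was at -1.40 (edgeR adjusted p = 0.20), Slc9a3r1, a scaffold that binds CFTR, at -0.50 (0.060), and Slc26a9 at 0.28 (0.46). No gene of the WNK-SPAK kinases, which switch NKCC1 on by phosphorylation, was called among 5 tested of 6, and the median was -0.14. Wnk1 was at -0.11 (edgeR adjusted p = 0.55) and Stk39, which encodes SPAK, at 0.37 (0.11).

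In the list of the sodium pump and its FXYD regulators, 5 of 10 tested genes rose and 1 fell, with a median of 0.67. Atp1b1, a beta subunit of the pump in epithelia, fell by 0.53 ± 0.14 on the log2 scale (SE, edgeR adjusted p = 0.020), while Atp1b3, another beta subunit, rose by 0.62 ± 0.10 (0.0020). Fxyd1, known from heart and skeletal muscle, rose by 2.82 ± 0.69 (edgeR adjusted p = 0.015). Fxyd6 (2.11, edgeR adjusted p = 0.046) and Fxyd5 (0.72, 0.0497) were close to the threshold. Without QZ1-hi 3, Fxyd1 was at 2.44 (edgeR adjusted p = 0.054) and Fxyd6 at 1.60 (0.17). The Atp1b1 call was lost without QZ1-hi 4 or QZ1-lo 1 or 3, and the Atp1b3 call with library size only (0.17, edgeR adjusted p = 0.65). Fxyd5 was called in 6 of 16 alternatives and Fxyd6 in 8 of 15.

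Among 10 epithelial potassium channel genes 7 were tested and 3 fell. Kcne2, a regulatory subunit of KCNQ1, was at 31.4 to 37.4 CPM in QZ1-lo and 6.22 to 11.3 CPM in QZ1-hi (-1.95 ± 0.21, edgeR adjusted p = 0.000278). Kcnk1 (-1.07 ± 0.20, edgeR adjusted p = 0.0041), a two-pore channel, and Kcnj15 (-1.07 ± 0.28, 0.021), an inward rectifier, also fell, the last without a call when QZ1-hi 3 or QZ1-hi 4 was left out. KCNQ1 itself was not called (Kcnq1, 0.81, edgeR adjusted p = 0.073). Over all 9 lists, 94 genes in all, 67 were tested, 8 rose and 16 fell, or 35.8% called. Scaling by library size alone turned this to 3 higher and 25 lower. Without the 10 channel genes, 58 were tested, 7 rose and 9 fell, or 27.6% called, beside the 18.1% of all genes, and the median was -0.13. The lists were also chosen with earlier results known, so this comparison is description only.

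**Figure D4:**
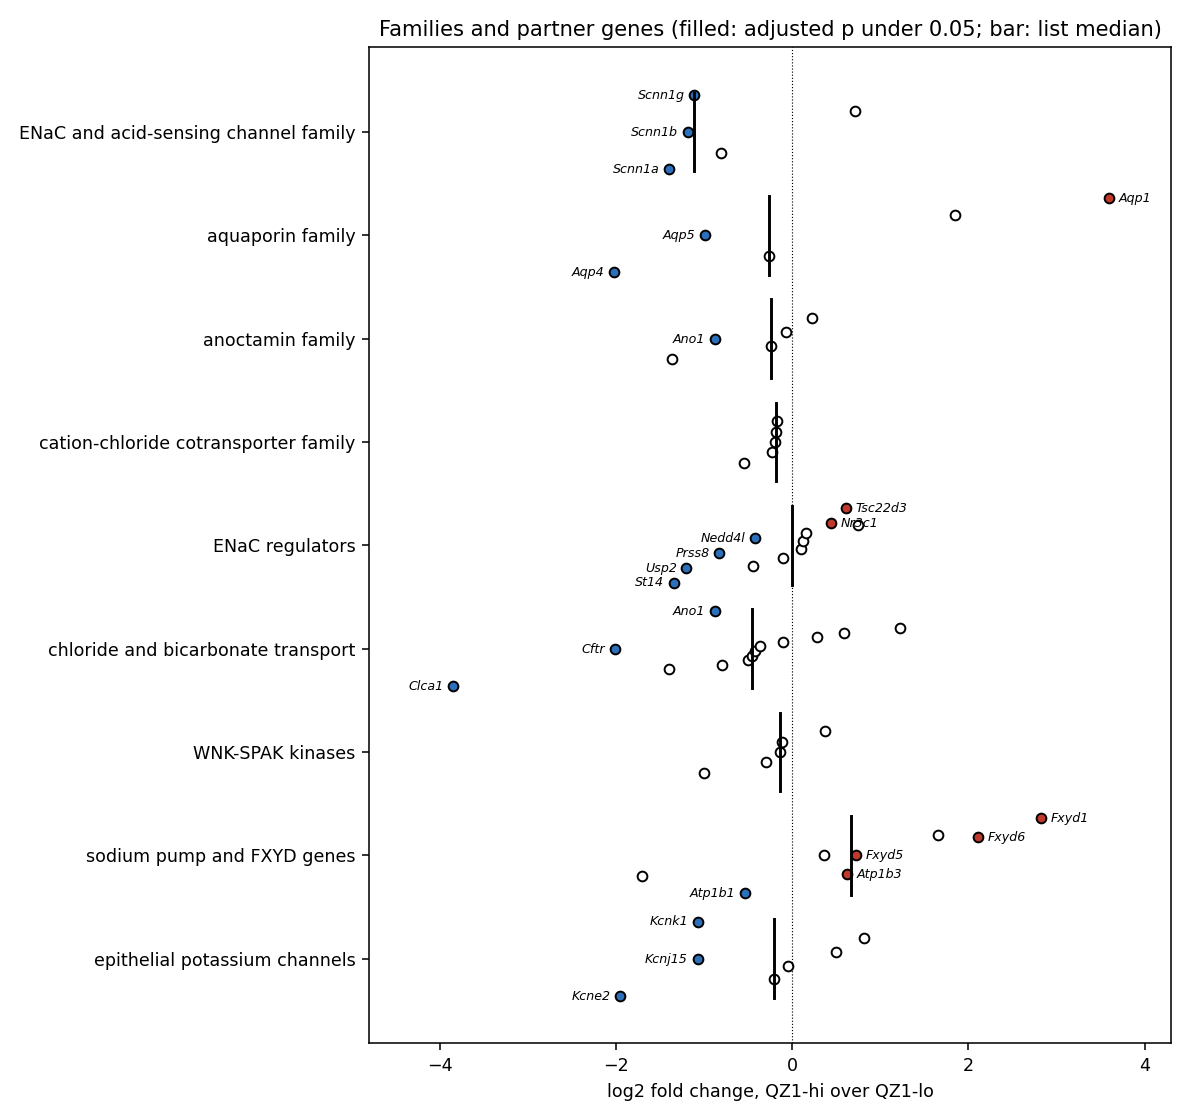
Log2 fold change (horizontal axis, QZ1-hi over QZ1-lo) of tested genes in the 4 families and 5 partner lists, with filled and named points for genes called by edgeR, red higher and blue lower, open points for the rest and a black bar at the median of each whole list, a few of whose genes are not drawn. The ENaC list has the lowest median, -1.11, and the sodium pump list the highest, 0.67.

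Markers of the cell types in the sort differed between the populations as well, and their part in these results was not tested. All 8 endothelial markers, led by Cdh5 and Vwf, were higher in QZ1-hi, and their summed level ran from 921 to 2189 CPM in QZ1-hi and from 70.6 to 281 CPM in QZ1-lo. Aqp1 put the 8 libraries in the same order as that sum, from QZ1-hi 3 at the top to QZ1-lo 4 at the bottom. The pericyte and fibroblast sums gave that order too, except that QZ1-hi 1 and QZ1-hi 2 changed places. Fibroblast markers (5 of 6 higher, with Col1a1 and Dcn the most abundant, 921 to 1850 against 26.6 to 218 CPM), pericyte markers (4 of 6 higher, with Cd248 and Des, 116 to 215 against 7.53 to 29.5 CPM) and mesothelial markers (4 of 4 higher, with Upk3b and Msln, 38.4 to 268 against 5.93 to 36.5 CPM) were also up in QZ1-hi. Smooth muscle markers summed to 27.4 to 42.9 against 11.8 to 24.8 CPM, with Myh11 and Tagln higher and Cnn1 lower. Erythroid markers, led by the globin genes Hba-a2 and Hba-a1, summed to 132 to 1015 CPM in QZ1-hi and 283 to 3122 CPM in QZ1-lo. None of the 6 tested was called by edgeR, their median log2 fold change was -1.54, and the exact permutation p of the sum was 0.2. Leukocyte markers, led by Lyz2 and Ptprc, summed to 2907 to 6216 and 2091 to 4111 CPM, and none of 6 was called. This sum mainly follows Lyz2, whose mean was 3600 CPM in QZ1-hi and 2534 CPM in QZ1-lo. The mean of Ptprc was 131 CPM in QZ1-hi and 125 CPM in QZ1-lo.

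Epithelial markers did not all go one way. Club markers (5 of 5 lower, led by Scgb1a1 and Cyp2f2) summed to 414 to 1127 CPM in QZ1-hi and 1567 to 4367 CPM in QZ1-lo. Ciliated markers (6 of 6 lower, led by Dnah5 and Tppp3) summed to 71.5 to 203 and 339 to 660 CPM, and goblet and gland markers (4 of 4 tested lower, led by Muc5b and Ltf) to 72.7 to 110 and 177 to 323 CPM. In QZ1-hi replicate 2 and QZ1-lo replicate 2, the libraries with the most Aqp4 in their groups, the club, basal and mesothelial sums were also the highest of their groups. Alveolar type 1 markers, led by Ager and Emp2, summed to 950 to 1328 and 1532 to 2046 CPM, with 5 of 8 lower and Pdpn, which other cells also express, higher. Alveolar type 2 markers summed to 6026 to 10844 CPM against 4809 to 7321 CPM (two-sided exact permutation p = 0.0571). Of these 8 genes Sftpc was higher (0.78, edgeR adjusted p = 0.023), Sftpb was at 0.39 (0.29), and none was lower. Basal cell markers were low in both populations, with sums of 1.45 to 7.66 and 1.43 to 5.65 CPM and Trp63 and Krt14 the most abundant.

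**Figure D5:**
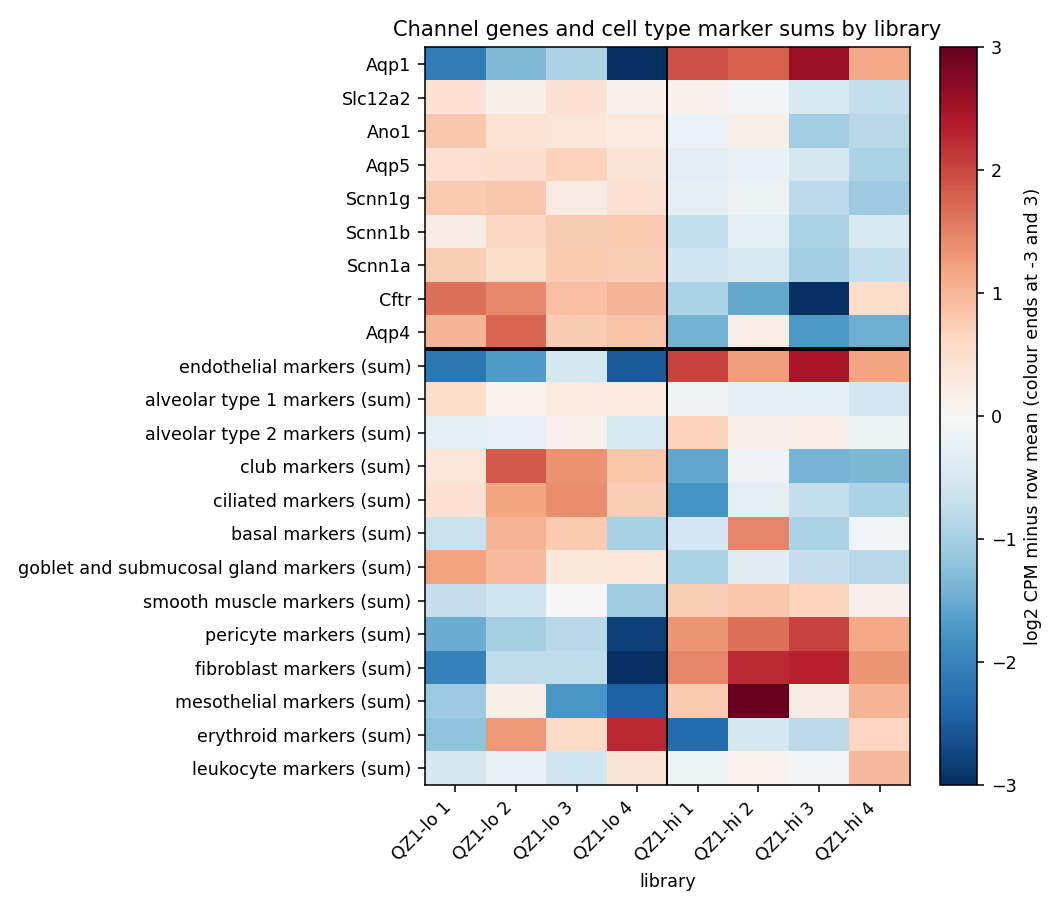
Log2 CPM minus the mean of its row (color, ending at -3 and 3) for the 9 tested channel genes and for the summed markers of each cell type (rows) in the 8 libraries (columns). Aqp1 and the endothelial, pericyte and fibroblast sums are red in all QZ1-hi and blue in all QZ1-lo libraries, and the club, ciliated and gland sums are blue or pale in QZ1-hi, as are most of the other channel genes.

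For each tested channel gene the 3 genes closest to it were sought, by the root mean square difference of centered log2 CPM over the 8 libraries, where 0 is an identical pattern. Aqp1 was nearest to Rhoj (0.194), Tek (0.197) and Col5a1 (0.234), and Tek, a receptor of endothelial cells, is in the endothelial list. Rhoj and Col5a1 are in none of the lists. Scnn1a was nearest to Myh14 (0.0662), with Klf5 also among its 3 nearest (0.0952), while Scnn1b was nearest to Strbp, Odf2l and Pitpnm3. Ect2 was among the 3 nearest to both Scnn1g (0.137) and Ano1 (0.172). Aqp5 was nearest to Itga3, Sorbs2 and Fam174b, and Slc12a2 to Sorcs2 (0.0643), Ptprf and Adgrg1. Aqp4 was nearest to Cckar (0.298), one of the 5 club markers, and Cftr to Chad (0.469), Tnip3 and Bpifb1, the last in the goblet and gland list. These distances were larger for Cftr and Aqp4, the channel genes with the fewest counts among those tested.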

How the data were processed

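Bulk RNA-seq of sorted QZ1-hi and QZ1-lo cells was analysed from the raw counts per gene that the authors deposited, made with Rsubread from aligned reads, not normalized, with genes given by Entrez identifier. The submitters' processing notes name mm10 and DESeq2, and the aligner, annotation and strand setting are not given in the sources used here. Libraries were grouped by the labels, and no column was left unused. A symbol was found for 25275 of 27179 identifiers, and Hbb-bt of the listed genes was not matched. Positions, exon lengths and promoter windows came from RefSeq and GENCODE annotation of GRCm38.p6.

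The test was edgeR 4.0.16 (R 4.3.3), with TMM scaling, filterByExpr (minimum count 10, minimum total 15), its quasi-likelihood test and Benjamini-Hochberg adjustment over all 15583 genes at 0.05. Replicate libraries differed by more than sampling noise, with chi-square per degree of freedom of at least 34.7. Within-group correlations of log2 CPM were 0.912 to 0.953.

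The channel genes and lists were chosen with earlier results of these data known. Genes named were the members, called list genes with others for their values, the 2 markers of highest CPM in each cell type with those called against the rest, and the 3 genes nearest each member (prior count 2). Asic1, Asic3, Ano6, Aqp9, Aqp11 and the other uncalled genes are named for their values only. Some items of the lists and rules are counted but not reported here by name. Epcam was chosen because it was on the gate. Alternatives were DESeq2 1.42.0 (Wald test), limma 3.58.1 (voom with sample weights), DESeq2 size factors, library size only, no filter, at least 10 counts in every library, a robust fit, an adjusted p under 0.01, removal of mitochondrial and ribosomal RNA genes, and each library left out in turn.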

Additional observations from a re-analysis of the deposited data

Results flagged for a closer look

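In groups of 4, a library was singled out when its gap to the nearest other library was above the critical share of the group's range in Dixon's test. Of 52 groups, from 26 genes in both populations, 3 had such a library, and chance singles out about 1 in 20. Aqp4 was at 5.09 CPM in QZ1-hi replicate 2, and at 1.33 to 1.65 CPM in the other QZ1-hi libraries. Clca1 was at 85.2 CPM in QZ1-lo replicate 1, and the other QZ1-lo libraries ran from 1.09 to 14.5 CPM. Fxyd5 was at 115 CPM in QZ1-hi replicate 4, and at 70.1 to 73.9 CPM in the other QZ1-hi libraries.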

How the results depend on the processing

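Of 143 comparisons of a tested channel gene with an alternative, 129 kept direction and side of the threshold, 9 lost the call (5 of Cftr, 4 of Ano1), 5 gained it (Slc12a2) and none reversed. Cftr had no value with at least 10 counts in every library. The channel genes called numbered 6 to 8 with a library left out, 6 at an adjusted p under 0.01 and 9 by DESeq2 and limma. All genes called numbered 2187 to 2543 with a library left out, 3418 by DESeq2, 2986 by limma and 1567 at an adjusted p under 0.01. Genes called in the 9 lists numbered 15 to 22 with a library left out, with 15 without QZ1-hi 3, and 11 at an adjusted p under 0.01. Of 253 comparisons of the other called list genes, 197 kept the call, 55 lost it and 1 reversed: Nr3c1 was at -0.024 (adjusted p = 0.950) with library size only. The cause was not tested. Channel genes without overlap numbered 8 or 9 under other scalings or with a library left out, alternatives chosen after seeing the data. No paired analysis was possible because the labels name no mouse and give no replicate number, so the numbers used here follow accession order and cannot pair libraries. Depth limits Aqp3, and less so Cftr and Aqp4.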
